A study of Mus musculus with 8 samples.

Results

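Isg15, Ifit1, Ifit3, Ifitm3, Irf7, Bst2 and Rsad2 are interferon-stimulated genes, and their UMI counts (unique molecular identifiers, each standing for 1 captured RNA molecule) are described here in mouse dorsal skin by cell class and treatment. They make up 7 of the 31053 genes listed in the count tables and were found by symbol, and all 7 had counts. The genes were selected on earlier results of these data in T cells, above all on Isg15, so the comparison of treatments in T cells is a description with no test of them. The data are 8 single-cell libraries of 10x Genomics 3′ chemistry, 1 per mouse, from female BALB/c mice aged 14 to 16 weeks: 4 of mice given PBMCsec, the secretome of irradiated human peripheral blood mononuclear cells, and 4 of mice given vehicle. All 8 are of skin dissociated from 4 mm biopsies. Per the study's methods, the mice carried scars of an excised wound on the back. The study had an arm of repeated injections, with animals taken at either of 2 later times, and a topical arm pooled by treatment group. The sample titles do not name the arm, and with 1 library per mouse the injection arm is assumed here. The study's methods give the 4 mm size for the topical arm alone, so the arm stays uncertain. The labels give neither the time nor which control solution a vehicle mouse received, so both were left inside the groups. With 1 library per mouse, a mouse and its own dissociation and library preparation cannot be told apart.

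Interferons are secreted proteins that signal through receptors on the cell surface to JAK kinases, which activate transcription factors. These bind the interferon-stimulated response element in promoters and switch on many genes, among them all members described here. Isg15 encodes a ubiquitin-like protein that is attached to other proteins. Ifit1 and Ifit3 encode tetratricopeptide repeat proteins, of which Ifit1 binds foreign RNA ends. Ifitm3 encodes a membrane protein that hinders the entry of viruses, Bst2 encodes tetherin, which holds budding virus particles at the cell surface, and Rsad2 encodes viperin, an enzyme that makes a chain-terminating nucleotide. Irf7 encodes a transcription factor that amplifies type I interferon production. In skin, this response is known from viral infection, from wounding and from autoimmune disease.

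The promoter stretches of 5 members are shown because each holds the response element in its simplest form upstream of the start. The motif searched was GAAANNGAAA on either strand (TTTCNNTTTC on the other), matches were allowed to overlap each other, and capitals mark the matched bases. All 7 members had a promoter window of 300 bases in RefSeq (GRCm38.p6; 250 bases before and 50 after the gene's start), and 3.44% of all 32851 windows of that length held the motif. Sequences are written 5′ to 3′ on the gene's strand.
Isg15 (chr4:156200860-156200911, minus strand): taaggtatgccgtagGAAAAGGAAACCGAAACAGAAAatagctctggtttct
Ifit1 (chr19:34640770-34640828, plus strand): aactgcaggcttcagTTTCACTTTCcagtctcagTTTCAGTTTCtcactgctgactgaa
Ifit3 (chr19:34583358-34583431, plus strand): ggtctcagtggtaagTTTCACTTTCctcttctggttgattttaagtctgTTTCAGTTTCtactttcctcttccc
Bst2 (chr8:71537572-71537617, minus strand): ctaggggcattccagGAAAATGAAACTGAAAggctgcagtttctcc
Rsad2 (chr12:26456548-26456587, minus strand): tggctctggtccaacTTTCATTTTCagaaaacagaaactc

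The Isg15 stretch carried 3 overlapping matches, between 78 and 57 bases before the start. Bst2 carried 2 overlapping matches. Ifit1 and Ifit3 each held 2 separate matches on the other strand, and Rsad2 held 1. In Ifitm3 both matches lay after the start, and in Irf7 these letters are not in this window. In the GENCODE M21 annotation of the same genome, all 7 are protein-coding genes: Isg15 on chromosome 4, Ifitm3 and Irf7 on chromosome 7, Bst2 on chromosome 8, Rsad2 on chromosome 12, and Ifit3 and Ifit1 on chromosome 19. Ifit3 lies beside its near-identical copy Ifit3b, and Ifitm3 beside Ifitm1 and Ifitm2, so reads that match a pair of copies could be split or lost in counting.

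Of 26231 barcodes, 6150 passed the study's cell filter, between 313 and 1515 per library after PBMCsec and between 151 and 1659 after vehicle, and 16900 barcodes exceeded 5% mitochondrial counts. Library totals lay between 18578561 and 37880651 UMIs after PBMCsec and between 14753926 and 33333619 after vehicle. At most 2 barcode sequences were shared by any pair of libraries. Clusters formed without the members were named from marker genes, which gave 857 T and B cells (TCs), 1385 fibroblasts (FBs), 2615 keratinocytes of the epidermis and hair follicle (KCs), 518 dendritic cells and macrophages, 118 neutrophil-like cells, 83 endothelial cells (ECs), 38 smooth muscle cells and pericytes and 27 mast cell-like cells, while 509 cells stayed unnamed. Of the 6 TC clusters, 1 was led by Gzma, Xcl1 and Ccl5 and included Ncr1, genes of natural killer cells, and 1 was led by Csf2, Il13 and Areg, genes of type 2 innate lymphoid cells. Levels are given as CPM, the UMIs of a gene divided by all UMIs of the summed cells and scaled to 1000000, within 1 library and class.

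In all kept cells, Ifitm3 was found in 63.8% of the cells, with 40371 UMIs. Bst2 was found in 27.8%, Isg15 in 13.4% (2307 UMIs) and Irf7 in 9.58%. Ifit1 was found in 4.29%, Ifit3 in 2.73% and Rsad2 in 1.69%, the latter with 557 UMIs in 104 cells. The last 3 were sparse, and their values per class and library rest on few cells.

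Each gene had its own order of cell classes. These orders are descriptions over libraries with at least 10 cells of the class, without a test, since the classes come from the same cells. Isg15 was highest in neutrophil-like cells, the short-lived phagocytes of acute inflammation, with 1730 ± 1080 CPM (SD, n = 4 libraries). Next came DCs and macrophages at 104 ± 73.0 CPM (n = 8), ECs at 104 ± 67.5 CPM (n = 6), TCs at 63.8 ± 49.9 CPM (n = 8), FBs at 40.9 ± 20.6 CPM (n = 8) and KCs at 23.7 ± 24.6 CPM (n = 8). Neutrophil-like cells exceeded DCs and macrophages in 4 of 4 libraries, while no later neighbours in this order differed by more than the SD of their difference. Only 3 PBMCsec libraries and 1 vehicle library held 10 such cells, so the treatments were not compared in them.

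Rsad2 and Irf7 also had their highest levels in neutrophil-like cells, at 870 ± 660 CPM and 257 ± 189 CPM (n = 4). For both, DCs and macrophages came next, with 64.3 ± 66.4 CPM of Rsad2 and 117 ± 73.6 CPM of Irf7 (n = 8). Rsad2 was at 2.78 ± 4.05 CPM in TCs and 0.162 ± 0.253 CPM in KCs. Irf7 in DCs and macrophages exceeded FBs, the next class, in 7 of 8 libraries. Ifit1 and Ifit3, the paired RNA-response genes, reached 346 ± 275 CPM and 214 ± 197 CPM in neutrophil-like cells. These cells exceeded ECs, the next class, in 3 of 3 libraries for Ifit1 and in 2 of 3 for Ifit3. Neither mean difference (244 and 104 CPM) was larger than its SD (291 and 111 CPM). Among the later neighbours, 1 pair differed by more than the SD of its difference: Ifit3 was higher in FBs (14.1 ± 11.1 CPM) than in TCs (1.38 ± 1.55 CPM) in 8 of 8 libraries.

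Ifitm3 and Bst2, whose products sit in membranes, had another order. Ifitm3 was highest in ECs, at 3580 ± 753 CPM (n = 6), and above neutrophil-like cells in 3 of 3 libraries that held both. Below came neutrophil-like cells at 1620 ± 851 CPM, FBs at 1420 ± 399 CPM, DCs and macrophages at 882 ± 363 CPM, KCs at 588 ± 314 CPM and TCs at 96.9 ± 95.4 CPM. TCs were below KCs in 8 of 8 libraries. Bst2 was highest in ECs as well (372 ± 106 CPM, n = 6), above DCs and macrophages in 6 of 6 libraries. TCs held 82.4 ± 29.7 CPM of Bst2, below FBs (165 ± 27.6 CPM) in 7 of 8 libraries.

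**Figure D1:**
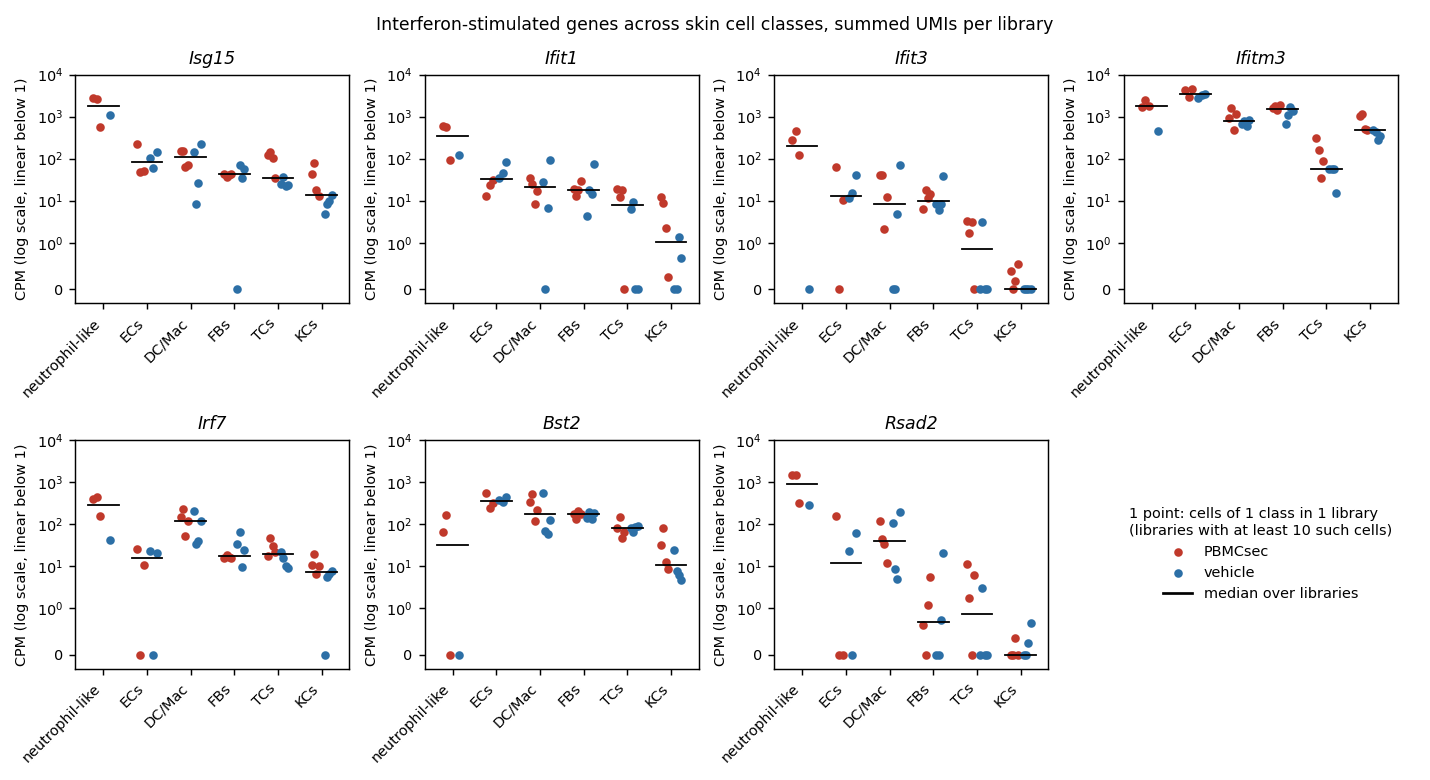
CPM of each gene (vertical axis, log scale, linear below 1) in 6 cell classes (horizontal axis), where each point is 1 library with at least 10 cells of the class, red for PBMCsec and blue for vehicle, and black lines are medians over libraries. Isg15, Ifit1, Ifit3, Irf7 and Rsad2 have their highest median in neutrophil-like cells, and Ifitm3 and Bst2 in ECs.

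Within the myeloid and stromal classes the levels followed clusters. The macrophage cluster led by C1qb, C1qa and C1qc (156 cells) held 295 CPM of Irf7, 214 CPM of Isg15 and 193 CPM of Rsad2, summed over libraries. The cluster led by Cd207, the Langerhans cell lectin (124 cells), held 14.3 CPM of Isg15, 4.08 CPM of Irf7 and 0 UMIs of Ifit1, Ifit3 and Rsad2. Both belong to the same named class, and its share of either cluster therefore sets part of its level. Among ECs, the lymphatic cluster led by Ccl21a and Mmrn1 (49 cells) held 4070 CPM of Ifitm3, and the cluster led by Fabp4 (34 cells) held 3140 CPM.

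Over 43 sums of a class in a library (7 named classes), the members' mean standardized level ran most closely with Rtp4 (Pearson r = 0.87), Sdcbp (0.84), Usp18 (0.83), Fth1 (0.82), Trafd1 (0.82), Entpd1 (0.82), Ly6e (0.81), Ifit2 (0.80), Gpr137b (0.80) and Ppt1 (0.78), among 9315 genes ranked. Rtp4, Usp18, Ly6e and Ifit2 are themselves interferon-stimulated genes. Isg15 alone ran most closely with Rtp4 (0.84), Ccrl2 (0.84) and Fth1 (0.83). Among the members, Isg15 ran with Ifit1 (0.89) and Rsad2 (0.86), and less with Ifitm3 (0.32) and Bst2 (0.14). Sums of 1 library share its depth and sums of 1 class share their cells, so these values describe the profiles and are no test.

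In TCs, Isg15 was higher in 3 of the 4 PBMCsec libraries than in any vehicle library. Its level was 122 CPM in PBMCsec 1, 142 CPM in PBMCsec 2, 103 CPM in PBMCsec 3 and 34.0 CPM in PBMCsec 4. In vehicle 1 to 4 it was 24.9, 37.0, 22.8 and 24.2 CPM. The groups overlapped, because PBMCsec 4 lay below vehicle 2. Each PBMCsec library lay above the vehicle library of the same number (4 of 4), but the sample titles do not say that equal numbers were paired. The mean was 100 ± 47.0 CPM after PBMCsec and 27.2 ± 6.56 CPM after vehicle (SD, n = 4 each), and the fitted log2 fold change was 1.96 (SE 0.38). Because the gene was selected on this comparison, no test is attached to it. These sums rest on 274 Isg15 UMIs in 105 cells.

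Ifitm3 in TCs was 306 CPM in PBMCsec 1, 163 CPM in PBMCsec 2, 34.9 CPM in PBMCsec 3 and 86.4 CPM in PBMCsec 4. In vehicle 1 to 4 it was 56.1, 55.5, 58.2 and 15.1 CPM. The library PBMCsec 3, high for Isg15, lay below 3 of the 4 vehicle libraries here, and the fitted log2 fold change was 1.73 (SE 0.54). Without PBMCsec 1 it was 1.09. Irf7 was 17.6, 46.8, 30.4 and 21.6 CPM in PBMCsec 1 to 4 and 21.8, 15.4, 10.1 and 9.09 CPM in vehicle 1 to 4, and overlapped between the groups. Bst2 was 80.2, 147, 47.0 and 64.8 CPM in PBMCsec 1 to 4 and 77.9, 64.7, 86.0 and 90.8 CPM in vehicle 1 to 4. The Bst2 values of the vehicle libraries lay inside the range of the PBMCsec libraries, with a log2 fold change of 0.15 (SE 0.32). Its direction turned without PBMCsec 2, to -0.29.

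The RNA-response genes were at the edge of detection in TCs. Ifit1 had 36 UMIs in 13 TCs, and lay at 19.2, 12.1, 18.2 and 0 CPM in PBMCsec 1 to 4 and at 6.23, 9.24, 0 and 0 CPM in vehicle 1 to 4. Ifit3 had 6 UMIs in 5 TCs, and Rsad2 had 11 UMIs in 6 TCs. The filter on low counts passed Isg15, Ifitm3 and Bst2 for the fit in TCs and left out the other 4 members.

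**Figure D2:**
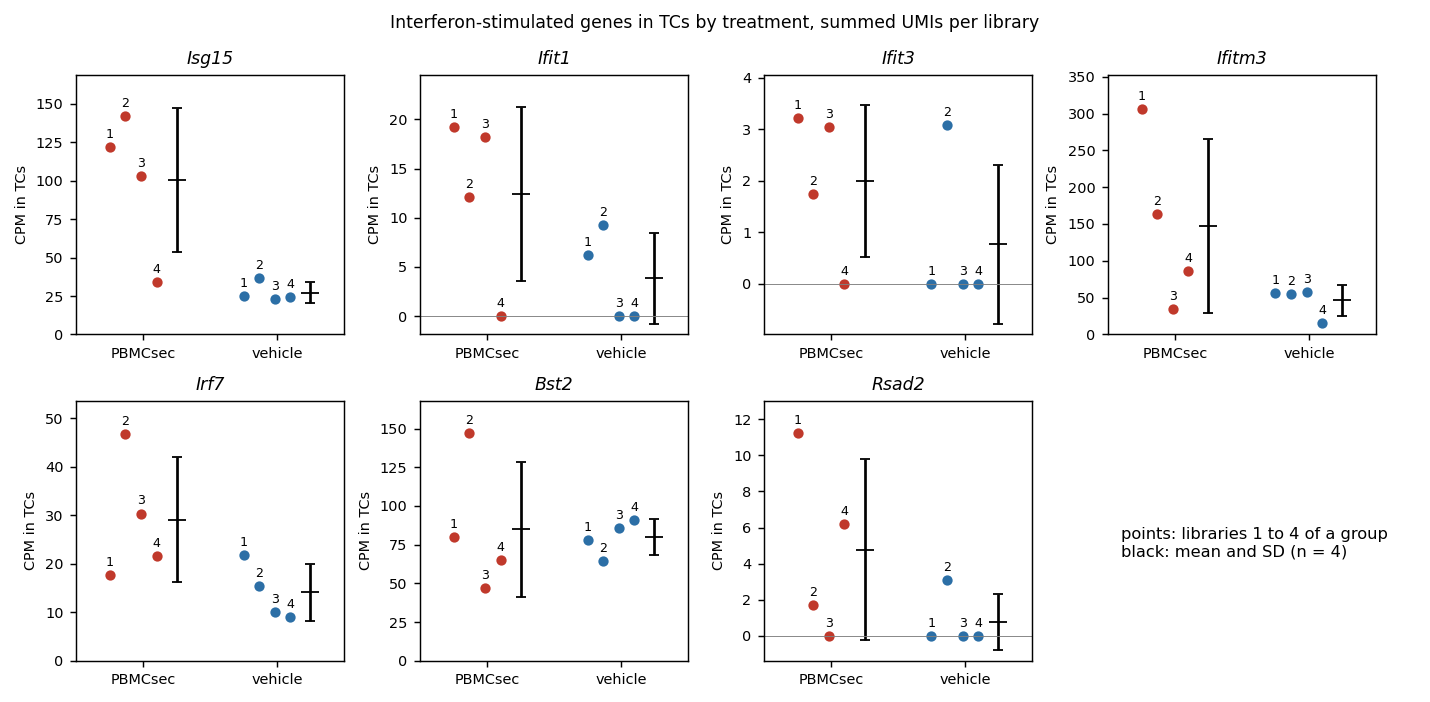
CPM of each gene in TCs (vertical axis) by treatment (horizontal axis), with the 4 libraries of a group as numbered points and the mean and SD in black (n = 4). For Isg15, PBMCsec 1 to 3 lie at 103 CPM or above and PBMCsec 4 lies at 34.0 CPM among the vehicle libraries, while the vehicle values of Bst2 lie inside the PBMCsec range.

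A few cells carried much of the Isg15 signal of TCs. There were 14 TCs with at least 5 Isg15 UMIs, a limit chosen after the counts were seen, and they held 54.0% of all Isg15 UMIs in TCs. Of these, 7 were in PBMCsec 1, 4 in PBMCsec 2, 3 in PBMCsec 3 and 0 in PBMCsec 4 and every vehicle library. The cell with the most Isg15 held 34 UMIs and was in PBMCsec 2. Leaving them out lowers PBMCsec libraries alone by construction, and Isg15 was then 24.5, 35.2, 69.2 and 34.0 CPM in PBMCsec 1 to 4, a mean of 40.7 ± 19.6 CPM. PBMCsec 3 stayed above every vehicle library, while PBMCsec 1 and 2 came to lie among them. The share of TCs with an Isg15 UMI was 14.5% ± 3.24 after PBMCsec and 9.49% ± 4.86 after vehicle. With every cell thinned to 1000 UMIs, which left out 6 and 2 shallower TCs, the shares were 5.41% ± 1.48 and 1.77% ± 1.30 (SD, n = 4 libraries each). At full depth, KCs gave a share of 8.18% at a median of 9996 UMIs per cell, against 12.3% in TCs at a median of 3373 UMIs. No class that lacks the gene was fixed, so the share that free RNA gives was not tested.

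Most Isg15-rich TCs had no UMI of the RNA-response genes. Among the 14, Ifit1 was found in 3 cells, Ifit3 in 1, Rsad2 in 1, Irf7 in 3, Ifitm3 in 8 and Bst2 in 9, at a median of 7472.5 UMIs per cell. The 34-UMI cell held 5 Ifitm3 UMIs and none of the other 5 members. The 17 KCs with at least 5 Isg15 UMIs had Ifit1 in 6 cells, Ifit3 in 2, Rsad2 in 1 and Irf7 in 7, at a median of 12712 UMIs. The 22 such FBs had Ifit1 in 16 cells, Ifit3 in 15 and Irf7 in 10, at a median of 11073.5 UMIs. Among 22 such DCs and macrophages, Irf7 was found in 20, Ifit1 in 13, Ifit3 in 12 and Rsad2 in 12, at a median of 10258.5 UMIs. Depth therefore also differed between these sets, and its part was not tested. Over all TCs, 7 of 857 cells held at least 4 of the 7 members at once, beside 23 of 2615 KCs, 113 of 1385 FBs and 52 of 518 DCs and macrophages. These are counts of cells, which share their libraries, and no test was made.

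**Figure D3:**
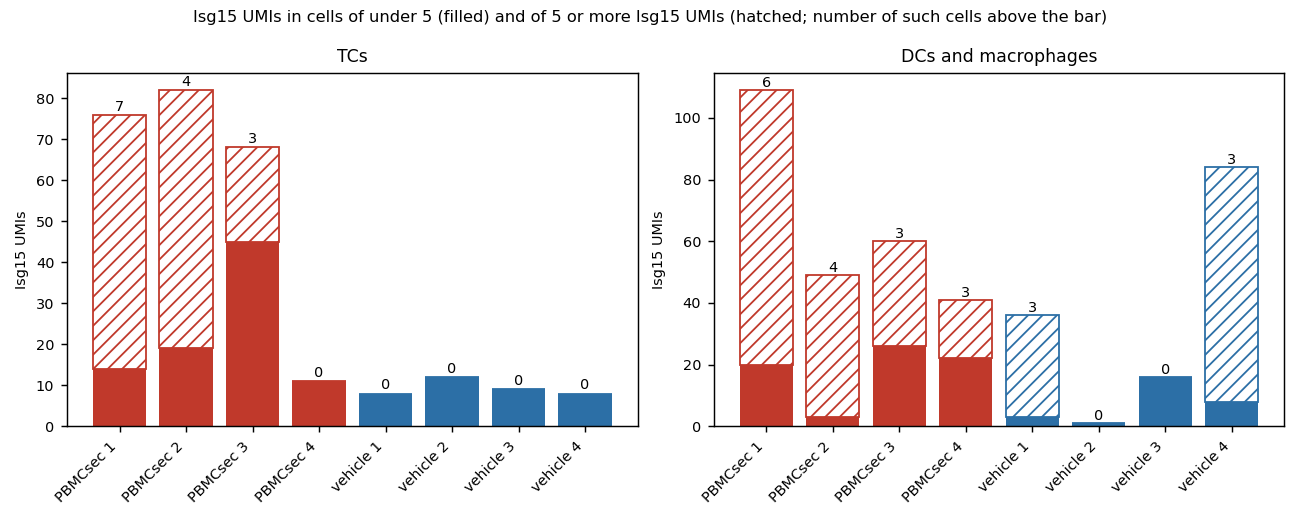
Isg15 UMIs (vertical axis) per library (horizontal axis) in TCs and in DCs and macrophages, split into cells with under 5 (filled) and with 5 or more Isg15 UMIs (hatched), with the number of the latter above each bar. In TCs the hatched part is present in PBMCsec 1, 2 and 3 with 7, 4 and 3 cells, while in DCs and macrophages vehicle 1 and vehicle 4 have 3 such cells each.

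The Isg15 UMIs of TCs were unevenly spread over the 6 clusters. The cluster led by Ctla4, Icos and Cd28, genes of activated and regulatory T cells (236 cells), held 168 of the 274 UMIs, a level of 163 CPM. It held 1 UMI of Ifit1, 0 of Ifit3 and 3 of Rsad2. Within this cluster Isg15 was 242, 332, 128 and 95.8 CPM in PBMCsec 1 to 4 and 81.9, 48.5, 25.9 and 58.1 CPM in vehicle 1 to 4. The cluster was singled out after its Isg15 level was seen, and its lowest library rested on 2 UMIs. The cluster led by Ms4a4b, Trac and Ms4a6b, whose cells carried Cd4 (273 cells), held 42 Isg15 UMIs (45.7 CPM) and 31 of the 36 Ifit1 UMIs. The cluster led by Trdc, Cd7 and Tcrg-C1, genes of γδ T cells (53 cells), held 124 CPM of Isg15, of which 21 of 25 UMIs came from PBMCsec 3, and no Ifit1. The other γδ-type cluster, led by 5830411N06Rik, Blk and Trdc (92 cells), held 10.5 CPM. The natural killer-type cluster (111 cells) held 22.3 CPM of Isg15 and 47.8 CPM of Irf7, the highest Irf7 level among the TC clusters.

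The mix of clusters differed between libraries. The Ctla4, Icos and Cd28 cluster made up between 27.9% and 33.3% of TCs in PBMCsec libraries and at most 25.8% in vehicle libraries. Its part in the Isg15 difference over all TCs was not tested. Ifitm3 had 400 UMIs in TCs, of which the same cluster held 190 and the Ms4a4b cluster 152, and 58 lay in 1 cell of PBMCsec 1. That cell also held Isg15, Ifit1, Bst2 and Rsad2.

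**Figure D4:**
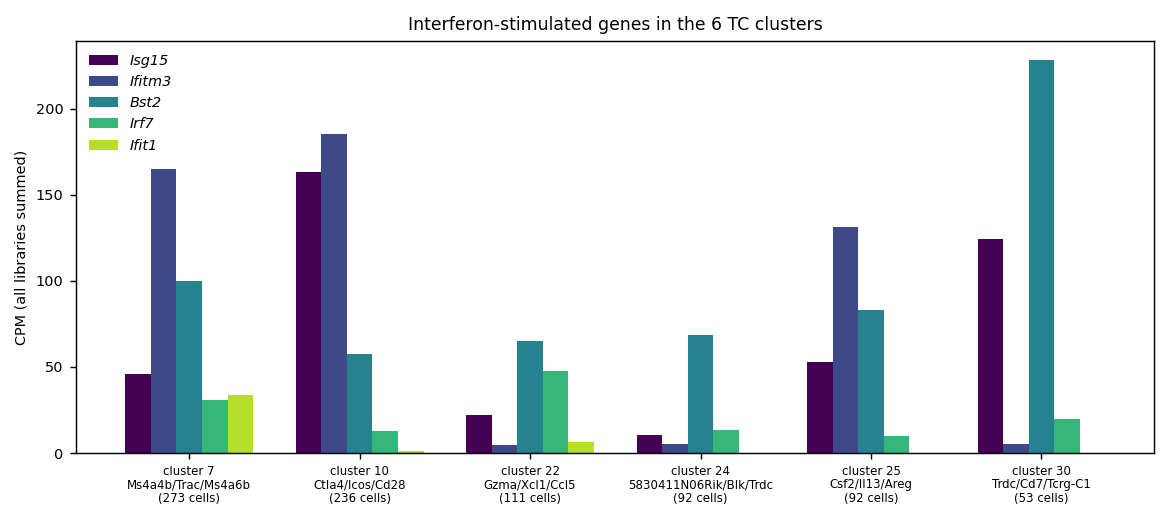
CPM of 5 genes (vertical axis, all libraries summed) in the 6 TC clusters (horizontal axis, each with its leading genes and number of cells). Isg15 stands at 163 CPM in the Ctla4, Icos and Cd28 cluster, where Ifit1 stands at 0.972 CPM, while Ifit1 reaches 33.7 CPM in the Ms4a4b, Trac and Ms4a6b cluster.

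Markers of other cell types were summed in TCs as well. The summed level of 18 DC and macrophage markers lay between 80.3 and 341 CPM after PBMCsec and between 127 and 222 CPM after vehicle, with C1qc and Flt3 at 0 UMIs. Of 5 neutrophil markers, S100a8, Csf3r and Retnlg were at 0, and the sum was at most 5.06 CPM. Of 8 EC markers, Cdh5, Flt1, Lyve1 and Prox1 were at 0, and the sum lay between 21.6 and 41.6 CPM after PBMCsec and between 17.7 and 106 CPM after vehicle. The 10 KC markers summed to between 370 and 969 CPM after PBMCsec and between 290 and 1240 CPM after vehicle. The 6 FB markers summed to between 60.6 and 200 CPM after PBMCsec and between 55.5 and 528 CPM after vehicle. The part of these cell types in the levels of the members was not tested. The globin and red cell genes reached 3040 CPM in the highest PBMCsec library and 45.4 CPM in the highest vehicle library, and their part was not tested.

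Across all 4965 genes tested in TCs, edgeR's quasi-likelihood test called 0 genes at an adjusted p under 0.05 (0%), while 84 genes (1.69%) had an unadjusted p under 0.05 and a higher level after PBMCsec. DESeq2 called 3 genes (0.0604%), and edgeR with the library number as a block called 6 genes (0.121%). In 57 genes (1.15%) every PBMCsec library lay above every vehicle library, and no member was among them. Since the contrast in TCs led to the choice of the genes, these counts are given as background only.

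In KCs, the 4 tested members had log2 fold changes above 0, and none passed the test. KCs were not used in the choice of the genes, but they come from the same mice and libraries as the TCs and are no independent support. Ifitm3 was 1028, 1129, 520 and 488 CPM in PBMCsec 1 to 4 and 487, 423, 280 and 352 CPM in vehicle 1 to 4. The groups did not overlap, although PBMCsec 4 and vehicle 1 lay side by side. The log2 fold change was 1.13 (SE 0.32; edgeR quasi-likelihood test, unadjusted p = 0.00414, adjusted p = 1.0). Isg15 was 44.0, 76.8, 18.2 and 13.2 CPM in PBMCsec 1 to 4 and 4.92, 8.57, 10.05 and 13.6 CPM in vehicle 1 to 4. PBMCsec 4 lay below vehicle 4, and the log2 fold change was 1.75 (SE 0.55; unadjusted p = 0.00797, adjusted p = 1.0). KCs with at least 5 Isg15 UMIs numbered 6, 3, 4 and 1 in PBMCsec 1 to 4 and 0, 0, 1 and 2 in vehicle 1 to 4. Leaving them out lowers the libraries that held them by construction. Isg15 was then 17.1, 11.5, 7.36 and 11.9 CPM in PBMCsec 1 to 4, and 4.92, 8.57, 9.43 and 8.16 CPM in vehicle 1 to 4. Bst2 was 31.9, 78.6, 12.8 and 8.34 CPM against 24.6, 7.50, 6.11 and 4.52 CPM. Vehicle 1 lay above PBMCsec 3 and 4 here, and the log2 fold change was 2.15 (SE 0.74; unadjusted p = 0.0142, adjusted p = 1.0). Vehicle 1 held 21 KCs alone, with 1 Isg15 UMI and 5 Bst2 UMIs. Irf7 had a log2 fold change of 0.76 (SE 0.41; adjusted p = 1.0).

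Isg15, Ifitm3 and Bst2 were highest in PBMCsec 1 and PBMCsec 2, while Irf7 in PBMCsec 1 (10.5 CPM) was close to PBMCsec 4 (10.2 CPM). In PBMCsec 2, 1 KC held 28 of the 44 Bst2 UMIs. With the top Bst2 cell of every library taken out, Bst2 was 29.3, 29.1, 11.9 and 7.02 CPM in PBMCsec 1 to 4. In vehicle 1 to 4 it was then 10.5, 5.38, 5.73 and 4.08 CPM. Without PBMCsec 2, the log2 fold changes were 1.27 for Isg15, 0.90 for Ifitm3, 1.45 for Bst2 and 0.53 for Irf7. Over all 10613 genes tested in KCs, 0 were called (0%), 114 were higher at an unadjusted p under 0.05 (1.07%) and 77 did not overlap with PBMCsec above (0.726%). Of the members tested, 3 of 4 had an unadjusted p under 0.05 and 1 of 4 did not overlap. KCs were spread over many clusters, and the cluster with the most cells was that led by Sostdc1, Ccl27a and Aldh3a1 after PBMCsec (15.8% of KCs) and that led by Id4, Scrg1 and Gnmt after vehicle (14.8%). Summed over libraries, Ifitm3 stood at 1510 CPM in the former cluster and at 246 CPM in the latter. The cluster shares pool the cells of a group, of which vehicle 3 gave 888 KCs and vehicle 1 gave 21. Whether the mix of KC clusters differed between treatments, and its part in the difference, was not tested. The 18 summed DC and macrophage markers in KCs, all with UMIs, lay between 129 and 277 CPM after PBMCsec and between 44.3 and 153 CPM after vehicle, and their part was not tested either. The share of KCs with an Ifitm3 UMI was 67.1% ± 7.30 after PBMCsec and 60.0% ± 7.04 after vehicle, and 36.1% ± 9.18 and 23.5% ± 4.69 with cells thinned to 1000 UMIs, which left out 36 and 21 shallower KCs (SD, n = 4 libraries each).

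In FBs the members had fold changes of either sign. Isg15 was 42.5, 35.7, 41.6 and 42.5 CPM in PBMCsec 1 to 4 and 0, 71.3, 35.2 and 58.0 CPM in vehicle 1 to 4. The PBMCsec libraries were close together and lay inside the range of the vehicle libraries, with a log2 fold change of 0.02 (SE 0.43; adjusted p = 1.0). Both ends of the vehicle range rested on few cells, with 0 Isg15 UMIs in 28 FBs of vehicle 1 and 12 in 21 FBs of vehicle 2. The PBMCsec libraries held between 69 and 468 FBs. Ifitm3 had a log2 fold change of 0.52 (SE 0.27), Bst2 of 0.15 (SE 0.23), Irf7 of -0.50 (SE 0.47), Ifit3 of -0.64 (SE 0.53) and Ifit1 of -0.69 (SE 0.54), each with an adjusted p of 1.0. Of 9362 genes tested, 0 were called (0%), 109 were higher at an unadjusted p under 0.05 (1.16%) and 96 did not overlap with PBMCsec above (1.03%). None of the 6 tested members was among either.

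The negative values of Ifit1 and Ifit3 in FBs rested on vehicle 4. Ifit1 was 18.7, 13.0, 17.98 and 29.5 CPM in PBMCsec 1 to 4, 4.27, 17.8 and 14.5 CPM in vehicle 1 to 3, and 74.3 CPM in vehicle 4. In that library 1 FB held 50 of the 105 Ifit1 UMIs, 27 of 82 Isg15 UMIs, 18 of 56 Ifit3 UMIs and 16 of 29 Rsad2 UMIs, and had all 7 members. Without this cell, vehicle 4 held 39.3 CPM of Ifit1 and 27.1 CPM of Ifit3, still the highest FB values of the 8 libraries. In PBMCsec 4, 1 FB with 6 members held 23 of 43 Ifit1 UMIs, 10 of 21 Ifit3 UMIs, 17 of 62 Isg15 UMIs and 7 of 8 Rsad2 UMIs. With that FB taken out, PBMCsec 4 held 13.8 CPM of Ifit1 and 7.6 CPM of Ifit3. Without vehicle 4, the log2 fold changes were 0.71 for Ifit1 and 0.63 for Ifit3, with the rich FB of PBMCsec 4 kept.

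In DCs and macrophages no member passed the test, and vehicle libraries differed widely in Isg15. Isg15 was 149, 152, 64.2 and 70.5 CPM in PBMCsec 1 to 4 and 143, 8.49, 26.1 and 221 CPM in vehicle 1 to 4, a log2 fold change of 0.01 (SE 0.59). Vehicle libraries held both the lowest and the highest value. The lowest, in vehicle 2, rested on 1 UMI in 15 cells. Ifitm3 had a log2 fold change of 0.54 (SE 0.30), Irf7 of 0.44 (SE 0.50), Bst2 of 0.63 (SE 0.59), Rsad2 of -0.67 (SE 0.79) and Ifit1 of -0.79 (SE 0.72), each with an adjusted p of 1.0. Without vehicle 4, Isg15 moved to 0.89, Rsad2 to 0.51 and Ifit1 to 0.88. Without vehicle 1, Bst2 moved to 1.79 and Irf7 to 0.94, and without PBMCsec 2 they moved to 0.24 and 0.11. With cells that held markers of another class removed, Isg15 was at 1.38, Bst2 at 1.22 and Irf7 at 1.01. Of 5591 genes tested, 0 were called (0%), 147 were higher at an unadjusted p under 0.05 (2.63%) and 73 did not overlap with PBMCsec above (1.31%), and none of the 6 tested members was among them.

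Much of the extreme values again came from single cells. In vehicle 4, 1 cell held 36 of 84 Isg15 UMIs with all 7 members, another held 22 of 36 Ifit1 UMIs and 33 of 72 Rsad2 UMIs with all 7 members, and a further cell held 27 of 45 Irf7 UMIs with all 7 members. Without the top cell of the gene, vehicle 4 still held 129 CPM of Isg15, 37.4 CPM of Ifit1 and 104 CPM of Rsad2. With the top cell of every library taken out likewise, these stayed the highest values of all libraries. In vehicle 1, 1 cell held 22 of 36 Isg15 UMIs, 22 of 50 Irf7 UMIs and 25 of 27 Rsad2 UMIs. Bst2 stood at 540 CPM in vehicle 1 and at no more than 121 CPM in any other vehicle library. It was 338, 526, 118 and 215 CPM in PBMCsec 1 to 4, so PBMCsec 2 lay close to vehicle 1. In vehicle 1, 88 of the 136 Bst2 UMIs lay in 2 cells with Siglech, a defining gene of plasmacytoid dendritic cells, which carry much Bst2. The summed level of 4 markers of that cell type (Siglech, Ccr9, Klk1 and Ly6d) was 488 CPM in vehicle 1, between 0 and 91.4 CPM in the other vehicle libraries and between 31.0 and 118 CPM in PBMCsec libraries. In vehicle 3, 54 of the 56 marker UMIs were of Ly6d. In KCs, with Siglech and Klk1 at 0, the same sum lay between 554 and 1970 CPM after vehicle, so it is not particular to plasmacytoid cells. Cells with Siglech also held 108 of 247 Bst2 UMIs in PBMCsec 1 (9 cells) and 57 of 170 in PBMCsec 2 (2 cells). Without the cells with Siglech, Bst2 was 211 CPM in vehicle 1, between 58.7 and 135 CPM in the other vehicle libraries and between 122 and 371 CPM in PBMCsec libraries.

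**Figure D5:**
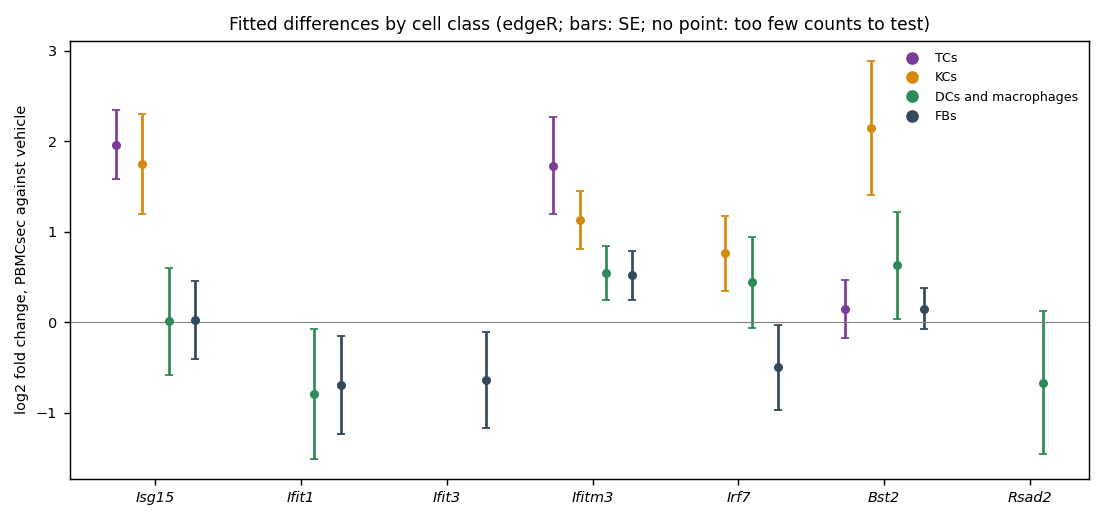
Fitted log2 fold change of PBMCsec against vehicle (vertical axis) for each gene (horizontal axis) and class (colour), with SE bars and no point where counts were too low to test. Isg15 stands at 1.96 in TCs and 1.75 in KCs, and at 0.01 in DCs and macrophages and 0.02 in FBs, and the TC values are a description of the comparison that selected the genes.

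Over all kept cells of a library, without classes, all 7 members were tested and none passed edgeR's test. These sums include the TCs whose comparison led to the choice of the genes, so the p-values here are no separate test of the members. Ifitm3 was 1135, 1264, 876 and 900 CPM in PBMCsec 1 to 4 and 501, 570, 630 and 596 CPM in vehicle 1 to 4. The groups did not overlap, with a log2 fold change of 0.91 (SE 0.18; edgeR quasi-likelihood test, unadjusted p = 0.000589, adjusted p = 1.0). DESeq2 gave an adjusted p of 0.00242 and called 10 genes (0.0759% of those tested by edgeR), Ifitm3 among them. The call of Ifitm3 thus depended on the tool. Isg15 was 92.8, 176, 37.9 and 29.95 CPM against 67.9, 40.1, 18.8 and 42.1 CPM, overlapping, with a log2 fold change of 1.07 (SE 0.59), and of 0.44 without PBMCsec 2. The other 5 had log2 fold changes between 0.25 (Rsad2, SE 1.22) and 1.12 (Ifit3, SE 0.77), and without 1 library Ifit3 ran from 0.38 (PBMCsec 2) to 2.39 (vehicle 4), Rsad2 from -0.54 (PBMCsec 2) to 1.53 (vehicle 1), Irf7 from 0.04 (PBMCsec 2) to 1.33 (vehicle 1), Bst2 from 0.26 (PBMCsec 2) to 1.26 (vehicle 1) and Ifit1 from 0.37 (PBMCsec 2) to 1.56 (vehicle 4). edgeR called 0 of 13182 genes (0%), with 260 higher at an unadjusted p under 0.05 (1.97%) and 145 not overlapping with PBMCsec above (1.1%). These sums move with the mix of classes, which differed between libraries. FBs, high in Ifitm3, made up 21 of 208 kept cells in vehicle 2 and 468 of 1515 in PBMCsec 3. Neutrophil-like cells, high in Isg15 and Rsad2, made up 35 of 313 in PBMCsec 2 and 6 of 1659 in vehicle 3. In PBMCsec 2 they held 175 of 397 Isg15 UMIs and 98 of 115 Rsad2 UMIs. In vehicle 1 they held 26 of 75 Isg15 UMIs and 40 of 67 Rsad2 UMIs. The part of the class mix was not tested.

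The genes upstream of the members were looked up from fixed lists. Of 21 interferon ligand genes, Ifng, the type II interferon of T and natural killer cells, had 264 UMIs in all kept cells, 257 of them in 90 TCs, and Ifnb1 had 4 UMIs in 3 cells. The other 19, all Ifna genes among them, had 0 UMIs in 6150 cells, which allows a share of up to 0.0488% of cells with a UMI for each and covers counting error only. In TCs, Ifng had a log2 fold change of 1.14 (SE 0.49; edgeR, unadjusted p = 0.0355, adjusted p = 0.998). All 6 receptor genes had UMIs in TCs and 5 were tested, with 0 called: Ifngr1 at 311 CPM (log2 fold change 0.75, SE 0.33), Ifnar1 at 97.1 CPM (0.45, SE 0.23) and Ifnar2 at 44.4 CPM (0.20, SE 0.28). Of the 6 signalling genes, 5 were tested in TCs and 0 were called, among them the kinases Jak1 (0.10, SE 0.20) and Jak2 (0.38, SE 0.46), both on the log2 scale. Of 13 sensor and adaptor genes, 5 were tested and 0 called, with Ddx58, the RNA sensor RIG-I, at 0.26 (SE 0.31), Tbk1 at -0.06 (SE 0.28) and Irf3 at 0.13 (SE 0.33).

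Other interferon-stimulated genes (52 listed, 51 found) were tested beside the members. In TCs 24 could be tested and 0 were called, with a median log2 fold change of 0.37 beside -0.01 over all genes tested. The log2 fold change was above 0 in 23 of these 24. Those with the most UMIs were Shisa5 (0.10, SE 0.22), Ifi27l2a (0.20, SE 0.42) and Sp100 (0.08, SE 0.22). In KCs 25 were tested and 0 called, with a median of 0.86 beside 0.01 over all genes and 24 of 25 above 0. Examples there were Ifitm2 (0.74, SE 0.21), Ifi27 (0.15, SE 0.18) and Ly6e (0.64, SE 0.21). In DCs and macrophages 41 were tested and 0 called, with a median of 0.54 beside -0.02 and 34 above 0. In FBs 36 were tested and 0 called, with a median of -0.04 beside 0.0 and 15 above 0. The genes of a list share their 8 libraries, so these counts are no test.

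Of 30 genes typical of interferon-gamma, 19 were tested in TCs, 22 in FBs, 20 in KCs and 18 in DCs and macrophages, with 0 called in each class. Their median log2 fold changes were 0.17, 0.13, 0.30 and 0.04. The antigen presentation genes H2-D1 (0.12, SE 0.18), B2m (0.00, SE 0.16) and H2-K1 (0.02, SE 0.21) had the most UMIs in TCs and lay near 0. KCs gave 0.10 (SE 0.22), -0.03 (SE 0.27) and 0.02 (SE 0.25) for the same genes.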

How the data were processed

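The authors deposited, for each of the 8 libraries, raw UMI counts per gene and called barcode, not normalized, and the same 31053 genes in each. Per the labels and file headers, Cell Ranger 3.0.2 and mm10 were used, and the paper names another version. The study's cell filter was applied (500 to 4000 genes, no more than 20000 UMIs, mitochondrial share no higher than 5%), and the genes Gm26917, Gm42418 and Gm17056 were dropped. No doublet caller was run, and cells with at least 2 markers of another class were removed as an alternative. Cells were integrated and clustered with Seurat 5.3.0 (R 4.3.3, 2000 variable features, 30 dimensions, resolution 1), leaving the listed genes out. Of 35 clusters 31 were named, where at least 3 markers were found in at least 25% of cells at 2-fold or more. Epidermal and follicular keratinocytes were joined, which departs from the planned class, because 2 clusters carried markers of both. A 10-cell minimum per library decided which classes were fitted. Following the study, collagen genes (Col3a1, Col1a1, Col1a2) were used for FBs alone and keratin genes (Krt14, Krt5, Krt1, Krt10, with Krtdap) for KCs alone.

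UMI counts, added up over the cells of a class in each library, were fitted over all genes by the quasi-likelihood test of edgeR 4.0.16 (filterByExpr for low counts, TMM scaling, two-sided, Benjamini-Hochberg over all genes tested, adjusted p under 0.05). Alternatives were DESeq2 1.42.0, its size factors in edgeR, no filter, the library number as a block, each library left out, a marker gate in place of clusters, and up to 20% mitochondrial counts. The fits were tested on simulated data. CPM in the text are not TMM-scaled, but counts of groups that did not overlap are. The named genes were the 7 members in every class, list genes called or else the 3 with the most UMIs in the class described, and the genes most like the members over sums with at least 10 cells, on log2(CPM + 10) among genes with at least 500 UMIs. Of the list genes named by this rule, 1 is not reported here. The members and lists were chosen with earlier results of these data known. The deviations of libraries with the same number from their group means correlated in TCs (r = 0.33, 0.25, 0.14 and 0.43 across genes) and in all kept cells (0.29, 0.30, 0.47 and 0.57). In DCs and macrophages these values were 0.32, 0.09, 0.28 and 0.28, all above 0 but low for number 2. The deviations did not correlate throughout in FBs (lowest -0.02) or KCs (lowest -0.02). In all kept cells, numbers 1 and 2 also correlated with each other between treatments (PBMCsec 2 with vehicle 1 at 0.43, PBMCsec 1 with vehicle 2 at 0.19). So did numbers 3 and 4 (PBMCsec 4 with vehicle 3 at 0.51, PBMCsec 3 with vehicle 4 at 0.31). Every pair across these sets of numbers was negative, between -0.22 and -0.55. Since group means were subtracted, the covariances of a library with all libraries of the other group cancel out. Negative pairs across the sets therefore follow on balance from positive pairs within them and are no further result. What the libraries of a set share was not tested. Library depth sets the precision of the sums.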

Additional observations from a re-analysis of the deposited data

Results flagged for a closer look

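In 52 groups of 4 libraries (26 gene and class pairs, each in 2 treatments), the library farthest from the others was compared with the spread of the group, and 8 stood apart from their own group by Dixon's limit, where chance would give about 1 in 20, or 2.6. In TCs these were Isg15 in vehicle 2 (37.0 CPM, the others between 22.8 and 24.9) and Ifitm3 in vehicle 4 (15.1 CPM, the others between 55.5 and 58.2). In FBs they were Isg15 in PBMCsec 2 (35.7 CPM, the others between 41.6 and 42.5) and Ifit3 in vehicle 4 (39.6 CPM, the others between 5.94 and 8.53). In vehicle 1, Bst2 stood apart in KCs (24.6 CPM, the others between 4.52 and 7.50), in DCs and macrophages (540 CPM, the others between 57.1 and 121) and in all kept cells (198 CPM, the others between 42.2 and 60.45), as did Irf7 in all kept cells (60.6 CPM, the others between 9.79 and 17.98). Vehicle 1 was the library with the fewest kept cells (151). The cause was not tested. The groups share 8 libraries, and all kept cells include the cells of each class. The flags are therefore not independent, and 8 beside 2.6 is no test of an excess. The rate of 1 in 20 assumes normally spread values, and some flags rest on few counts. Isg15 in TCs of vehicle 2 had 12 UMIs, beside 8, 9 and 8 in vehicle 1, 3 and 4, and in FBs of PBMCsec 2 it had 22.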

How the results depend on the processing

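The count of genes called was 0 in FBs and KCs under all 15 alternatives each. In TCs it was 0, but 3 with DESeq2, 45 with no filter on low counts and 6 with the replicate block, and lay between 0 and 2 with 1 library left out (2 without PBMCsec 4). In DCs and macrophages it was 0, but 7 with DESeq2, 109 with no filter, 6 with the replicate block, 2 with the marker gate and 10 without cells holding other markers, and between 0 and 1 with 1 library left out (1 without vehicle 2). In all kept cells DESeq2 called 10. The cause of these differences was not tested.

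Fold changes of the members that changed sign were small, rested on 1 library or turned with the limit on mitochondrial counts. With 1 library left out, Isg15 in FBs ran from -0.24 (without vehicle 1) to 0.35, Ifit1 from -1.06 to 0.71 and Ifit3 from -1.07 to 0.63, the highest value of each without vehicle 4. In DCs and macrophages Isg15 ran from -0.37 (without vehicle 3) to 0.89 (1.38 without cells holding other markers), Ifit1 from -1.28 to 0.88 and Rsad2 from -1.51 to 0.51, again highest without vehicle 4, and with up to 20% mitochondrial counts Ifit1 and Rsad2 were at 0.80 and 1.09. In all kept cells Rsad2 ran from -0.54 (without PBMCsec 2) to 1.53 (without vehicle 1). In KCs none of 60 alternative values changed sign or side of the threshold. In TCs Isg15 lay between 1.70 and 2.21 on the log2 scale over 15 alternatives, and the replicate block gave 1.90. Low counts or a few rich cells limit Ifit1, Ifit3 and Rsad2, in neutrophil-like cells as well. There Ifit1 had 73 UMIs in 17 cells and Ifit3 had 49 UMIs in 13 cells. For Rsad2, 14 neutrophil-like cells with at least 5 UMIs held 82.5% of the UMIs. In DCs and macrophages, 13 cells with at least 5 Rsad2 UMIs held 85.4% of the Rsad2 UMIs.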
